A study of Mus musculus with 10 samples.

Results

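The 9 genes Prdm6, Slc6a2, Adamts17, Ccdc68, Esr1, Them5, Crispld1, Orai2 and Dph2 were followed through the blood endothelial cells (BECs) and lymphatic endothelial cells (LECs) of mouse ear skin. They were chosen by name from the 46517 Ensembl genes of the count tables, because their levels were higher in BECs of Pik3ca mutant mice than in BECs of control mice. That difference is therefore given below as a description and with no test. The question was which BEC subtypes hold the cells positive for these genes, and whether LECs of the same mice show them as well.

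Single cells of the ear dermis had been sorted on Podoplanin and CD31, after removal of cells stained for CD45, CD11b or Ter119, into 384-well plates for Smart-Seq2. The 5 mutant mice carried Cdh5-CreERT2, in which the endothelial Cdh5 promoter drives a tamoxifen-inducible Cre, and a Pik3caH1047R transgene that Cre switches on. They received 4-OHT (4-hydroxytamoxifen) on the ear skin and were sampled at 5 weeks of age. Control 1 was an untreated C57BL/6J mouse, and control 2 was a Cre- littermate of the Pik3caH1047R;Cdh5-CreERT2 cross given 4-OHT, both also of 5 weeks. The third control of the study was not analysed here. Plate numbers of mutants 1 to 4 formed a series apart from those of mutant 5 and both controls, so that plate series and genotype are largely confounded and only mutant 5 shares the series of the controls.

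The 9 genes have little in common by known function. Prdm6 is a PRDM-family nuclear factor known from smooth muscle, and Esr1 is oestrogen receptor alpha, a ligand-activated transcription factor. Slc6a2 is the noradrenaline transporter of the cell membrane, and Orai2 forms calcium channels that open when intracellular stores are empty. Adamts17 is a secreted metalloproteinase and Crispld1 a secreted protein of the CAP superfamily. Them5 is a mitochondrial acyl-CoA thioesterase, Dph2 acts in the first step of diphthamide synthesis on elongation factor 2, and Ccdc68 is a coiled-coil protein of centriole appendages. PI3K, whose catalytic subunit is encoded by Pik3ca, acts through AKT downstream of vascular growth factor receptors. Apln encodes the peptide apelin, found in sprouting endothelium. Gja5 encodes the arterial connexin 40, and Ackr1 and Selp encode a chemokine receptor and P-selectin of venules.

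Of 3248 cells that passed the limits on reads, genes and mitochondrial reads, 2524 came from mutant and 724 from control mice. A cell was called a BEC where the read counts scaled to the total of the cell (counts per 1e6 reads, CPM) of Flt1, Emcn and Podxl summed to at least 300 and to more than the sum of Prox1, Flt4 and Mmrn1. The reverse made it a LEC. This gave 1174 mutant and 316 control BECs, 1283 mutant and 358 control LECs, and 117 cells with neither name. The LEC factor Prox1 stood at 322 to 502 CPM in LECs and at 3.49 to 24.8 CPM in BECs of the 7 mice. However, 1048 LECs also had a BEC sum of 300 or more. The BECs of a mouse held 38402388 to 99630824 reads in all, and the LECs 55616045 to 194353210. Summed fibroblast markers were at 575 to 790 CPM in control BECs and at 12.8 to 43.4 CPM in mutant BECs, and summed mural markers at 307 to 672 and 33.9 to 205 CPM. Their part in the results was not tested, and in such sums fewer cells of a kind and less RNA per cell cannot be told apart.

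BECs were divided into 4 exclusive classes, taken in the order Apln of at least 50 CPM, Gja5 of at least 50 CPM, Ackr1 plus Selp of at least 100 CPM, and the remaining cells. The Apln class made up 48.6%, 52.7%, 56.1%, 43.7% and 46.9% of BECs in mutants 1 to 5, against 10.1% and 16.6% in controls 1 and 2. Gja5 cells were 3.94% to 8.25% of mutant and 12.6% and 9.55% of control BECs. Of the other genes of the tip cell list, Angpt2 was at 12.5 to 86.5 CPM, Pgf at 3.63 to 15.8 CPM, Esm1 at 0.101 to 6.10 CPM and Cxcr4 at 0.118 to 1.08 CPM in the mutant Apln class, and the class is called by its leading gene only. Selp, at 527 to 814 CPM, and Ackr1, at 257 to 425 CPM, were abundant in it. In mutants 1 to 5, 62.7% to 74.2% of Apln cells also passed the Ackr1 plus Selp limit.

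Promoter sequence from RefSeq, covering 250 bases before to 50 bases after the start of the gene, was at hand for 4 members (5 promoters, 2 of them of Esr1). Those of Them5, Adamts17 and Orai2 are shown because these genes share the Apln class as their main BEC class and their promoters differ plainly in composition. Capitals mark matches to 5 motifs searched on both strands, which were TGTTTAC (FOXO), AGGTCA (nuclear receptor site), CCGGAAG (ETS), CACGTG (E-box) and TGACTCA (AP-1). Build GRCm38.p6 applies to all of them.
Them5, chr3:94341849-94342148, plus strand: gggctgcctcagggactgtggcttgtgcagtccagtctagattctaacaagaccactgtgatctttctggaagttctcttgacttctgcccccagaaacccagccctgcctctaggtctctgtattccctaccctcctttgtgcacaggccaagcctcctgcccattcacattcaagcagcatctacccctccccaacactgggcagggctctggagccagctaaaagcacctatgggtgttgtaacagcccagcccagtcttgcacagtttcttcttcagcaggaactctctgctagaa
Adamts17, chr7:66839485-66839784, plus strand: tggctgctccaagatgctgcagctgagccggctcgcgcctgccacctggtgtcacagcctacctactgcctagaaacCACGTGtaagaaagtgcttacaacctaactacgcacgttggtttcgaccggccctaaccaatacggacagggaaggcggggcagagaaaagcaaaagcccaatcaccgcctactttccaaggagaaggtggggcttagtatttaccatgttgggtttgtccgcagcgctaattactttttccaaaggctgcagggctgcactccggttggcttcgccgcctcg
Orai2, chr5:136170607-136170906, minus strand: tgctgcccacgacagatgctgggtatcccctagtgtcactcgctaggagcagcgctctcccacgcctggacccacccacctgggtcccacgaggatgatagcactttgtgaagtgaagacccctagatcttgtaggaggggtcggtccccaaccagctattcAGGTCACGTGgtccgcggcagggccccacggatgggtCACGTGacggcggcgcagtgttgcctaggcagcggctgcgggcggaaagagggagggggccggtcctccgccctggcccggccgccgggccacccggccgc

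The Them5 promoter held no CpG and none of the 5 motifs, at 54.0% G and C. The Adamts17 promoter held 17 CpGs and 1 E-box, which began 173 bases before the start. The Orai2 promoter held 24 CpGs at 68.0% G and C. It had E-boxes beginning 84 and 51 bases before the start, and the first overlaps the AGGTCA match that begins 88 bases before it. Of 32851 mouse promoters of this length, 7.15% held an E-box, 16.3% AGGTCA, 8.86% CCGGAAG, 5.20% TGACTCA and 3.65% TGTTTAC. Neither Esr1 promoter held a motif. Among the 5 promoters of members, 2 held an E-box and 1 held AGGTCA. These are matches of letters in a window, and binding was not measured.

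In the BECs of the mice, 8 of the 9 genes had mutant levels wholly above control levels, and Crispld1 did not. The genes were chosen on this contrast, and the share of all genes with this ordering was not counted. Prdm6 (ENSMUSG00000069378; GRCm38 chromosome 18, 53463583 to 53575907) had no read in either control, and stood at 13.9, 23.3, 3.29, 19.0 and 10.7 CPM in mutants 1 to 5. Its mean of 14.04 ± 7.68 CPM (SD, n = 5) was 407-fold the level that 3 reads over both control mice would give. Mutant BECs with a Prdm6 read held a median of 15 such reads, so that 1 missed cell could exceed this level. The value is no lower bound on the fold. Slc6a2 (chromosome 8, 92960079 to 93001667) stood at 0.348 and 1.02 CPM in controls 1 and 2, and at 40.3, 38.0, 43.2, 59.5 and 31.1 CPM in the mutants. The lowest mutant was far above the higher control. Adamts17 (chromosome 7, 66839735 to 67153171) was at 1.80 and 0.0731 CPM in the controls and at 28.0, 18.4, 17.99, 36.4 and 16.7 CPM in the mutants. Ccdc68 (chromosome 18, 69925426 to 69969484) was at 4.41 and 0 CPM in the controls, and at 17.1, 16.2, 17.2, 21.2 and 11.6 CPM in the mutants. Of its exons, 9.43% are shared with 1700061H18Rik on the other strand. For both genes all 5 mutants lay above both controls.

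Them5 (chromosome 3, 94342099 to 94347352) was not silent in control BECs, at 19.2 and 6.41 CPM, and reached 61.8, 56.4, 61.2, 41.0 and 37.2 CPM in mutants. Per kilobase of exon it was the most abundant of the 9 genes in mutant BECs, at 33.5 CPM per kb, while Esr1 was the least abundant at 1.35 CPM per kb. Orai2 (chromosome 5, 136147459 to 136170713) was at 0.500 and 2.19 CPM in controls, and at 10.6, 16.05, 12.0, 18.2 and 8.94 CPM in mutants. Both differences were without overlap. Dph2 (chromosome 4, 117888643 to 117892032) was at 4.85 and 2.63 CPM in controls, and at 20.4, 27.1, 32.0, 28.8 and 17.8 CPM in mutants. Crispld1 (chromosome 1, 17727045 to 17766344; 12.1% of its exons shared with the antisense Gm16070) was at 26.7 and 20.3 CPM in controls, and at 30.9, 23.5, 46.1, 67.0 and 26.6 CPM in mutants. Mutants 2 and 5 lay within the control range, so the description of Crispld1 as induced did not hold for every mouse. Esr1 (chromosome 10, 4611593 to 5005614) is described further on. Mutant 5, the mutant that shares the plate series of the controls, was above both controls for the same 8 genes and was the lowest mutant for 6 of them. Its values were part of the contrast that chose the genes, so this is no separate check on the plate series. Across all genes edgeR called 1.51% of the 19315 tested higher in mutant BECs, and 4 of the 9 were among them, which says nothing further because this contrast chose them.

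**Figure D1:**
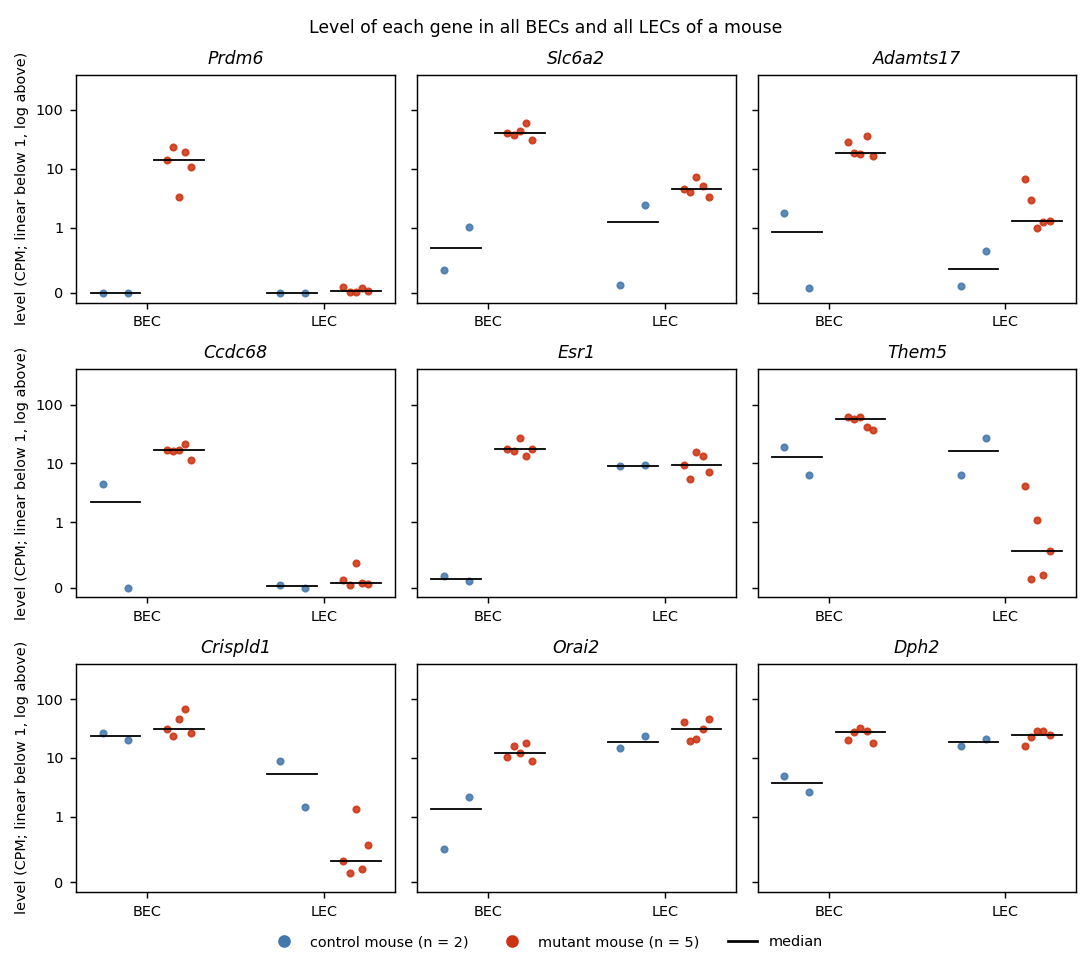
Level of each gene in CPM (linear below 1, log scale above) from the summed reads of all BECs or all LECs of a mouse. Points are mice, 2 controls in blue and 5 mutants in red, and lines are medians. In BECs, where the genes were chosen, 8 genes have all mutants above both controls, and in LECs Them5 and Crispld1 lie lower in mutants.

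Within mutant BECs, the Apln class held 71.6% to 86.1% of the cells positive for 6 of the genes. The class was taken first, so it also holds cells past the Ackr1 plus Selp limit. A cell was positive where it kept at least 1 read of the gene after every cell had been thinned to 50000 reads. The class made up 50.2% of mutant BECs, but 86.1% of 101 Ccdc68-positive cells, 81.3% of 139 Slc6a2-positive, 81.2% of 85 Prdm6-positive, 79.5% of 127 Adamts17-positive, 77.4% of 195 Them5-positive and 71.6% of 88 Orai2-positive cells. It held 59.8% of 179 Crispld1-positive and 54.7% of 106 Dph2-positive cells, closer to its share of all cells. For Esr1 it held 48.8% of 473 positive cells.

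**Figure D2:**
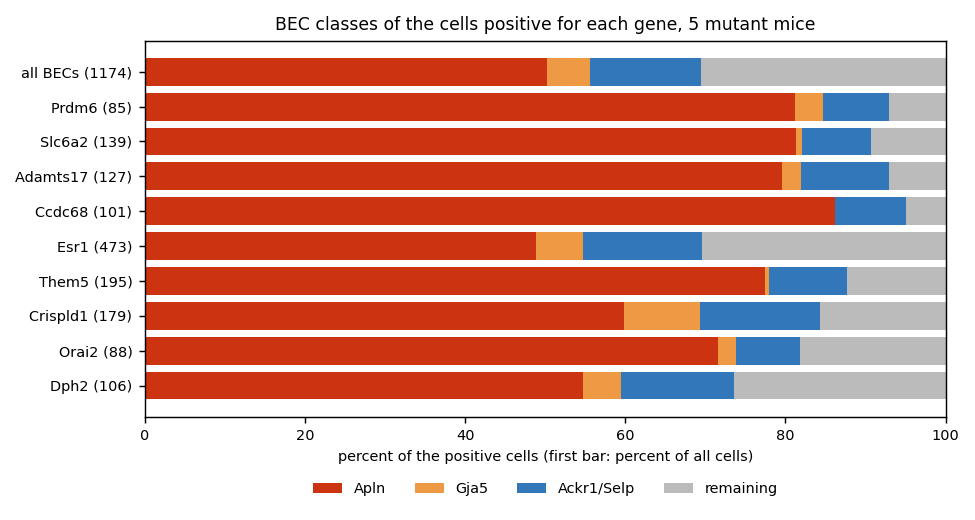
Percent of the BECs positive for each gene that fell into each class, over 5 mutant mice, with the number of positive cells in brackets and all 1174 BECs in the first bar. The Apln class is 50.2% of all BECs and 71.6% to 86.1% of the cells positive for Prdm6, Slc6a2, Adamts17, Ccdc68, Them5 and Orai2.

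Slc6a2 was abundant in Apln cells and low in remaining cells. In Apln cells of mutants 1 to 5 its level was 77.4, 60.8, 70.4, 97.7 and 52.8 CPM, and in remaining cells of the same mice 0.587, 0, 0.512, 15.9 and 0.486 CPM. Every mouse was higher in the Apln class, and mutant 4 alone had more than 1 CPM in the remaining class. The positive share was 21.3%, 17.5%, 22.7%, 19.7% and 14.1% in Apln cells and 0% to 7.14% in remaining cells. Prdm6 in Apln cells was at 26.4, 23.2, 5.42, 33.8 and 17.2 CPM, against 0 to 3.70 CPM in remaining cells. Mutant 3 was low for this gene in both measures, with 4.86% of its Apln cells positive where the other mutants had 10.6% to 19.6%. Summed mural markers were at 10.6 to 56.2 CPM in the Apln class and at 29.0 to 404 CPM in the remaining class.

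Adamts17 in Apln cells was at 50.6, 30.3, 24.5, 53.4 and 25.0 CPM, and in remaining cells at 0 to 8.27 CPM. Ccdc68 in Apln cells was at 30.4, 21.9, 28.3, 37.1 and 17.4 CPM, and at 0.213 to 3.22 CPM in remaining cells. Neither gene showed any overlap of the 2 classes among the 5 mice. Them5 in Apln cells was at 104, 94.9, 91.6, 66.5 and 54.8 CPM, against 0.274 to 14.3 CPM in remaining cells, and again the classes did not overlap. Orai2 in Apln cells was at 19.4, 22.7, 19.5, 18.7 and 11.8 CPM, and in remaining cells at 1.17, 2.37, 0.128, 19.6 and 10.5 CPM. In mutant 4 the remaining class was thus slightly higher, so that the gap held in 4 of 5 mice.

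The classes of the same mice were compared with edgeR's quasi-likelihood test on summed reads, with the mouse as a block and Benjamini-Hochberg adjustment over 16028 genes. For Apln against remaining BECs 1.14% of genes were called higher, and 1 of the 9 members was, Ccdc68 (log2 fold change 5.04, SE 1.21, adjusted p = 0.0388). Adamts17 was next at 5.65 (SE 1.45, adjusted p = 0.0560). Slc6a2 had 5.73 (SE 2.00, adjusted p = 0.237), Prdm6 5.35 (SE 1.87, adjusted p = 0.235) and Them5 3.35 (SE 1.21, adjusted p = 0.260), so that large differences in the same direction in all 5 mice did not pass the test. DESeq2 called 2.78% of genes higher, and 5 members (adjusted p = 1.21e-05 for Ccdc68, 1.26e-05 for Adamts17, 0.00103 for Slc6a2, 0.00641 for Prdm6 and 0.0225 for Them5). Orai2 was not called by either tool (log2 fold change 1.87, edgeR adjusted p = 0.903), nor were Crispld1 (1.58, 0.502), Dph2 (-0.31, 1.00) and Esr1 (-0.28, 1.00). The median of the 9 was 3.35, against 0.03 over all genes tested. The Apln class was a larger part of mutant than of control BECs. A choice of genes higher in mutant BECs therefore favours genes of this class. The values of the 9 here are not independent of that choice. Apln cells also had more reads per cell, with medians of 208297 to 456866 against 158778 to 266614 in remaining cells, and 3.95% to 21.3% of them were cycling against 0% to 10.0%. Shares after thinning are at equal depth. The edgeR call of Ccdc68 was kept in 7 of 13 alternatives. It was lost without mutant 1 (adjusted p = 0.186), mutant 2 (0.117), mutant 3 (0.187) or mutant 5 (0.108), with no filter on low counts (0.0539) and with thinned cells (0.0669), at log2 fold changes of 4.67 to 5.65 in these.

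**Figure D3:**
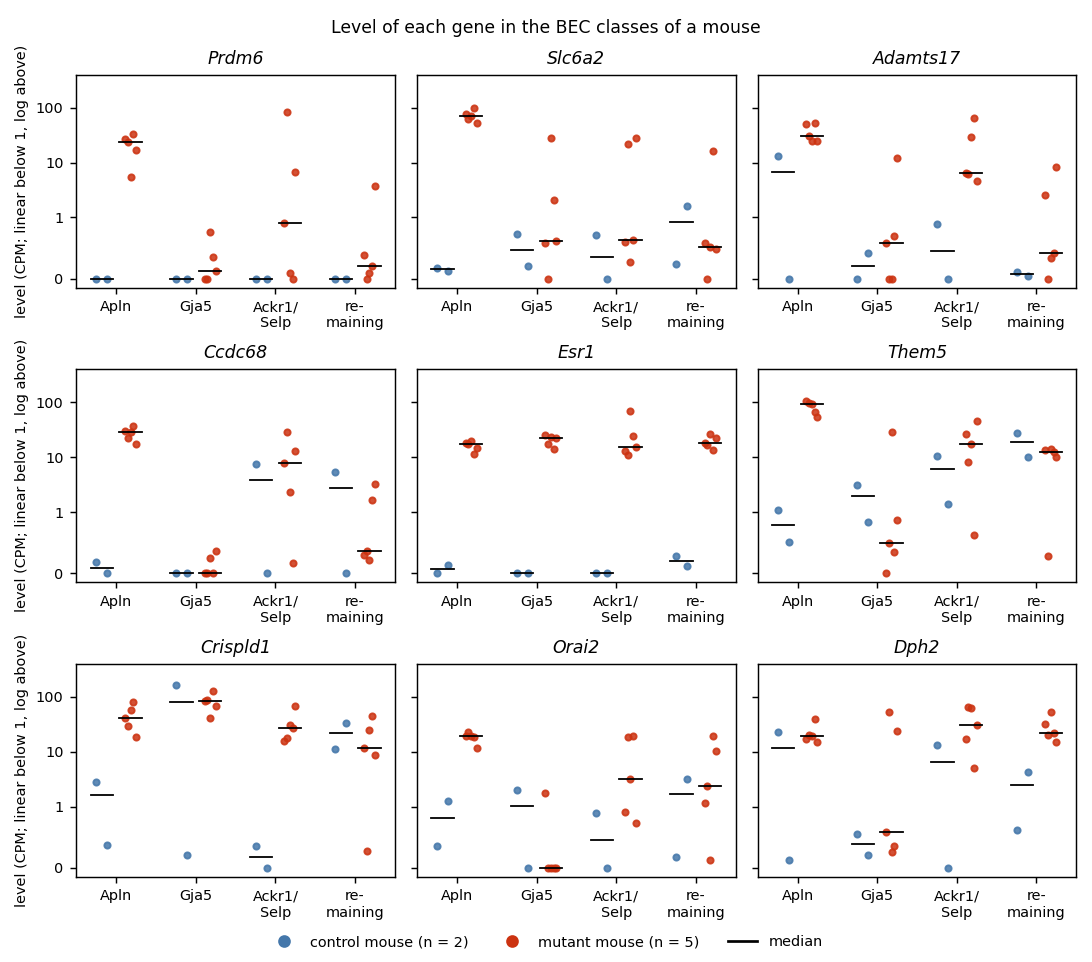
Level of each gene in CPM (linear below 1, log scale above) in the 4 BEC classes of each mouse. Points are mice, 2 controls in blue and 5 mutants in red, and lines are medians. Prdm6, Slc6a2, Adamts17, Ccdc68 and Them5 have their highest mutant median in the Apln class, though single mutants are higher in Ackr1/Selp cells for Prdm6, Adamts17 and Ccdc68, Esr1 is level over the mutant classes, and the 2 control mice are low for these genes in the Apln class, apart from Adamts17 in control 1.

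Apln cells of control mice, 42 in all, were positive for 5 of the 9 genes. Prdm6, Slc6a2, Ccdc68 and Esr1 had 0 positive cells of 42, which allows a share of up to 7.14%. With the cells of both controls pooled, the share was 2.38% for Adamts17 (1 cell), 4.76% for Crispld1 and for Orai2, and 7.14% for Them5. By mouse, it ran from 0% to 6.25% for Adamts17 and from 0% to 12.5% for Crispld1. For Orai2 it ran from 0% to 7.69%, and for Them5 from 3.85% to 12.5%. The controls had 16 and 26 such cells, so the pooled shares are a description only. In the 589 mutant Apln cells the pooled share was 11.7% for Prdm6, 19.2% for Slc6a2, 14.8% for Ccdc68, 39.2% for Esr1, 17.1% for Adamts17, 18.2% for Crispld1, 10.7% for Orai2 and 25.6% for Them5. For Dph2 the pooled share was 9.52% of control and 9.85% of mutant Apln cells. The 2 controls were unlike, at 3.85% and 18.75% positive and at 0.126 and 23.0 CPM, so no comparison can rest on their pooled share. When the classes of each mutant mouse were weighted as in control mice, the mean level of Slc6a2 went from 42.4 ± 10.6 to 15.2 ± 5.85 CPM (SD, n = 5), still above the higher control. That of Them5 went from 51.5 ± 11.6 to 21.9 ± 5.56 CPM, whose lowest mouse, at 15.9 CPM, lay below control 1. That of Ccdc68 went from 16.7 ± 3.45 to 6.01 ± 0.795 CPM and that of Adamts17 from 23.5 ± 8.52 to 9.81 ± 3.89 CPM. Dph2 and Esr1 were at about their unweighted levels, at 26.8 ± 9.98 and 19.8 ± 6.02 CPM.

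Mutant BECs were also split by the Apln level, with the cells of the mice pooled. Of mutant BECs under the limit, 61 had no Apln read and 524 were between 0 and 50 CPM. Slc6a2 was positive in 0% and 4.96% of these, in 6.67% of 45 cells from 50 to under 100 CPM, and in 20.5% of 448 cells of 500 CPM or more. Ccdc68 was positive in 1.64% and 2.48% below the limit, in 4.44% just above it and in 15.8% at 500 CPM or more. Prdm6 and Adamts17 were each positive in 11.1% of the 45 cells just above the limit. Only 3 mice had at least 5 such cells. Over these mice the share ran from 0% to 16.7% for Slc6a2 and Prdm6, 7.69% for Ccdc68 and 23.1% for Adamts17. The genes thus cannot be told apart there. Esr1 was positive in 37.7% of cells without Apln and in 38.2% of cells at 500 CPM or more.

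**Figure D4:**
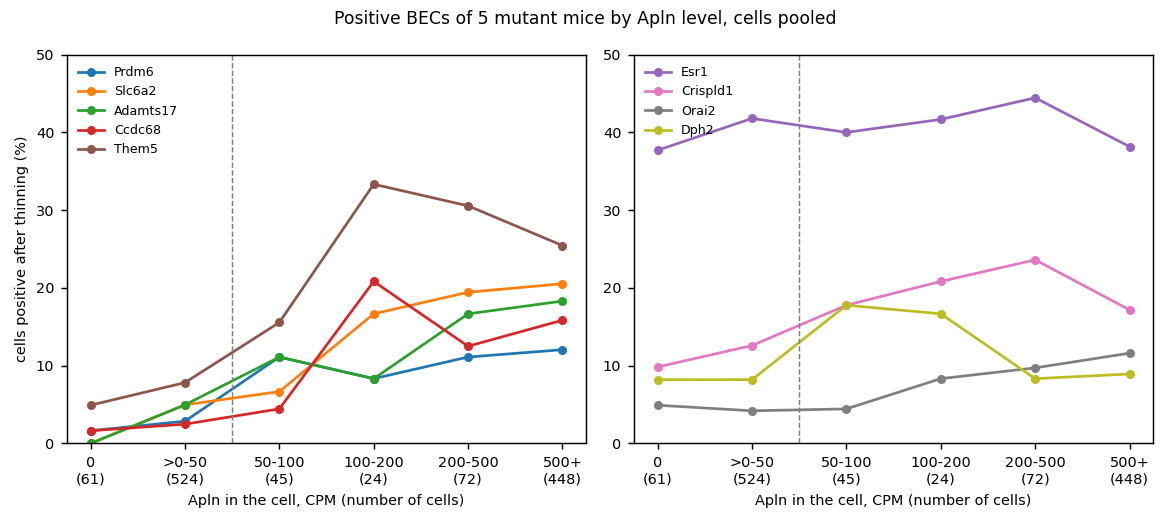
Percent of mutant BECs positive for each gene after thinning, by the Apln level of the cell in CPM, cells of 5 mutant mice pooled, with the number of cells in brackets and the class limit of 50 CPM as a dashed line. Slc6a2, Adamts17, Ccdc68, Prdm6 and Them5 are low below the limit and higher above it, and Esr1 lies between 37.7% and 44.4% throughout.

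Within the Apln class, the cells that also carried Ackr1 or Selp held more of these genes. Among 390 mutant Apln cells past the Ackr1 plus Selp limit, Ccdc68 was positive in 21.03% (12.3% to 32.7% over the 5 mice), and among 199 Apln cells under it in 2.51% (0% to 9.38%). Slc6a2 was positive in 23.8% (20.0% to 28.9%) and 10.1% (3.77% to 14.8%). For both genes the mice did not overlap between the 2 sets of cells. Them5 was positive in 32.1% and 13.1%, Adamts17 in 21.5% and 8.54%, and Crispld1 in 22.3% and 10.1%, with mice overlapping. Prdm6 was positive in 14.1% and 7.04%. Dph2 had 9.23% and 11.1%, Orai2 11.5% and 9.05%, and Esr1 39.0% and 39.7%, and the mice overlapped for these 3 genes. In 165 mutant BECs past the Ackr1 plus Selp limit but under that of Apln, Ccdc68 was positive in 5.45% and Slc6a2 in 7.27%. Them5 was positive there in 11.5%, Adamts17 in 8.48% and Prdm6 in 4.24%. For these genes the pooled share was nearer to Apln cells under the Ackr1 plus Selp limit than to those past it. Crispld1, at 16.4%, lay between the 2. These splits were chosen after the values of the classes had been seen and have no test.

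Cells past the Ackr1 plus Selp limit but under those of Apln and Gja5 held uneven levels of the same genes. Adamts17 was at 6.48, 6.08, 29.1, 64.5 and 4.66 CPM there in mutants 1 to 5, all above the 0 to 0.894 CPM of the controls. Ccdc68 was at 7.69, 28.3, 2.31, 0.157 and 12.7 CPM, a range that holds the 7.51 CPM of control 1. Prdm6 reached 82.8 CPM in mutant 2 and was at 0 to 6.77 CPM in the other mutants. Against remaining BECs edgeR called 1.16% of genes higher and none of the 9, while Adamts17 had 4.92 on the log2 scale (SE 1.48, adjusted p = 0.106) and 1972 genes had an unadjusted p under 0.05. DESeq2 called 3.39% of genes higher and 2 members, Adamts17 (adjusted p = 0.000168) and Ccdc68 (3.25, adjusted p = 0.0123).

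Gja5 cells were few, 8 to 25 per mutant mouse, and Crispld1 was the member that stood highest in them. It was at 84.0, 88.1, 40.6, 127 and 68.4 CPM in mutants 1 to 5, against 11.8, 0.274, 25.3, 44.5 and 8.68 CPM in remaining cells, higher in each mouse. Control 1 had 163 CPM in its 20 Gja5 cells and control 2 had 0.207 CPM in its 15. The mutant levels thus lay between those of the 2 controls. Slc6a2, Them5 and Ccdc68 had 1, 1 and 0 positive cells of 63, and Orai2 had 3 reads in all. The 0 of Ccdc68 allows a share of up to 4.76%. In remaining cells the pooled shares were low as well, at 3.62%, 6.69% and 1.39% for Slc6a2, Them5 and Ccdc68. For Slc6a2 the log2 fold change against remaining cells was 1.04 (SE 2.23, edgeR adjusted p = 0.884). EdgeR called 1.72% of genes in either direction against remaining cells and none of the 9, and DESeq2 called 11.1%, among them Crispld1 as higher (log2 fold change 2.79, adjusted p = 0.00129) and Orai2 as lower (-4.50, adjusted p = 0.0141). The edgeR values were 2.66 (SE 0.78, adjusted p = 0.0991) and -4.53 (SE 1.85, adjusted p = 0.242), and 2442 genes had an unadjusted p under 0.05 there. The median log2 fold change of all genes in this contrast was -0.30.

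Dph2 showed no leaning to a class. Its level in mutants 1 to 5 was 16.99, 20.5, 19.3, 39.2 and 14.8 CPM in Apln cells and 32.5, 20.2, 53.4, 21.5 and 14.7 CPM in remaining cells, with the ranges overlapping. Positive shares were 6.34% to 13.5% and 3.33% to 14%. In control mice its level in the remaining class was 0.613 and 4.30 CPM, under all 5 mutants.

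Esr1 behaved unlike the other members. Its level in BECs was 0.174 and 0.0975 CPM in controls 1 and 2, and 17.3, 16.3, 27.4, 13.5 and 17.5 CPM in mutants 1 to 5. The positive share was 1.26% and 0.637% in controls and 40.4%, 40.2%, 47.6%, 32.2% and 37.0% in mutants, and over the classes it was 39.2% of Apln, 44.4% of Gja5, 42.9% of Ackr1/Selp and 40.1% of remaining cells. Reads per positive cell were few and even. Before thinning the median was 6 reads and 20.3 CPM in 757 positive mutant BECs, and 2.51% of these exceeded 100 CPM, against 34.2% for Slc6a2 and 40.3% for Them5. All 12 positive control BECs had 1 read. CreERT2, which every mutant mouse carried and neither control did, is a fusion of Cre with a mutated ligand-binding domain of human ESR1. The tables give 1 count per gene and have no entry for that fusion, so its reads and those of mouse Esr1 cannot be told apart. Cdh5, whose promoter drives CreERT2, was found in 99.4% to 100% of mutant BECs. Esr1 was positive in 47.3%, 40.2%, 49.1%, 32.2% and 37.1% of BECs above the median Cdh5 level of mutants 1 to 5, and in 33.7%, 40.2%, 46.1%, 32.2% and 36.8% of the other BECs. The share was thus clearly higher with more Cdh5 in mutant 1 and close to equal in mutants 2, 4 and 5. In LECs it was 30.4%, 19.4%, 30.9%, 23.1% and 22.4% above the median and 19.6%, 9.57%, 28.6%, 18.7% and 17.9% in the others, higher with more Cdh5 in each mutant. These shares are a description, with no test.

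In LECs the share of Esr1-positive cells was also higher in every mutant than in the controls, while the levels overlapped. It was 3.83% and 3.43% in controls and 25.0%, 14.4%, 29.8%, 20.9% and 20.2% in mutants, without overlap. Levels were 8.93 and 9.36 CPM in controls and 9.40, 5.41, 15.5, 13.1 and 7.12 CPM in mutants (log2 fold change 0.20, SE 0.47, edgeR adjusted p = 0.853). Few control LECs held the reads, since 33.3% of 33 positive control LECs exceeded 100 CPM against 3.37% of 594 positive mutant LECs. Of the LEC classes, the Lyve1-low cells had 24.0 and 23.7 CPM in controls and 5.36 to 50.4 CPM in mutants, and Ptx3 cells had 0.259 and 0.297 CPM in controls and 2.16 to 4.61 CPM in mutants.

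For the remaining members LECs gave another picture than BECs. LECs were classed by Cldn11 of at least 200 CPM (valve), then Ptx3 of at least 100 CPM, then Lyve1 of at least 500 CPM (capillary) and Lyve1-low. Prdm6 and Ccdc68 were close to absent in LECs, at 0.0167 to 0.0929 and 0.0360 to 0.375 CPM in mutants. They did not pass the filter on low counts, which 7 of the 9 members did. Of the 19 LECs with a Prdm6 read before thinning, 94.7% had 1 read, against 30.3% of 109 such BECs in the same mice. Slc6a2 was at 0.125 and 2.40 CPM in control and 4.55, 4.0995, 7.34, 5.13 and 3.30 CPM in mutant LECs, above both controls in all 5 mice but below every mutant BEC value. Adamts17 was at 0.107 and 0.637 CPM in control and 6.66, 2.91, 0.999, 1.22 and 1.29 CPM in mutant LECs, again without overlap. The share of all genes without overlap in LECs was not counted. The Ptx3 class, 33.6% of mutant LECs, held 48.9% of 45 Slc6a2-positive and 44.8% of 29 Adamts17-positive cells. Capillary cells, 38.0% of mutant LECs, held 33.3% and 34.5%. Of the reads, Ptx3 cells held 41.5% for Slc6a2 and 68.0% for Adamts17, and valve cells 41.9% and 16.1%.

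Them5 and Crispld1 went the other way in LECs. Them5 was at 6.24 and 26.5 CPM in control LECs and at 4.15, 0.126, 1.09, 0.187 and 0.556 CPM in mutant LECs, so that all 5 mutants lay below both controls. Crispld1 was at 9.03 and 1.45 CPM in controls and at 0.325, 0.144, 1.34, 0.204 and 0.566 CPM in mutants, also without overlap, though mutant 3 was close to control 2. Orai2 was abundant in LECs of both genotypes, at 14.6 and 23.4 CPM in controls and 40.1, 19.7, 21.3, 30.5 and 46.7 CPM in mutants, with overlapping ranges. Dph2 overlapped too, at 15.7 and 21.3 CPM against 16.02, 22.6, 29.1, 28.6 and 24.9 CPM. For both genes the control LECs were above the control BECs, and for Dph2 the mutant BECs lay in the range of LECs in 4 of 5 mice, with mutant 3 above it.

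In the test of mutant against control LECs, edgeR called 2.76% of 19758 genes in either direction and none of the 7 members tested, while 3963 genes had an unadjusted p under 0.05. The log2 fold changes were -3.31 for Crispld1 (SE 0.99, adjusted p = 0.112), -3.69 for Them5 (SE 1.17, adjusted p = 0.129), 2.87 for Adamts17 (SE 1.16, adjusted p = 0.220), 2.04 for Slc6a2 (SE 0.99, adjusted p = 0.292), 0.79 for Orai2 (SE 0.39, adjusted p = 0.301) and 0.45 for Dph2 (SE 0.31, adjusted p = 0.448). DESeq2 called 12.5% of the genes, with Crispld1 as lower (adjusted p = 0.0199) and Adamts17 as higher (adjusted p = 0.0415). EdgeR called Slc6a2 as higher once control 2 was left out (log2 fold change 5.28, adjusted p = 0.0376), which leaves 1 control assumed to vary like the mutants. It called Crispld1 as lower with the first plates only (-4.76, adjusted p = 0.0271) and with a stricter LEC rule (-4.92, adjusted p = 0.0329). The median of the 7 members was 0.45, against -0.01 over all genes. Summed fibroblast markers were at 193 to 382 CPM in control and 15.8 to 106 CPM in mutant LECs. In the cells with neither name, where the controls had 50 such cells, Crispld1 was at 109 and 239 CPM and Them5 at 119 and 148 CPM, above the level of these genes in all BECs or all LECs of any mouse. The part of such cells in the LEC values was not tested.

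**Figure D5:**
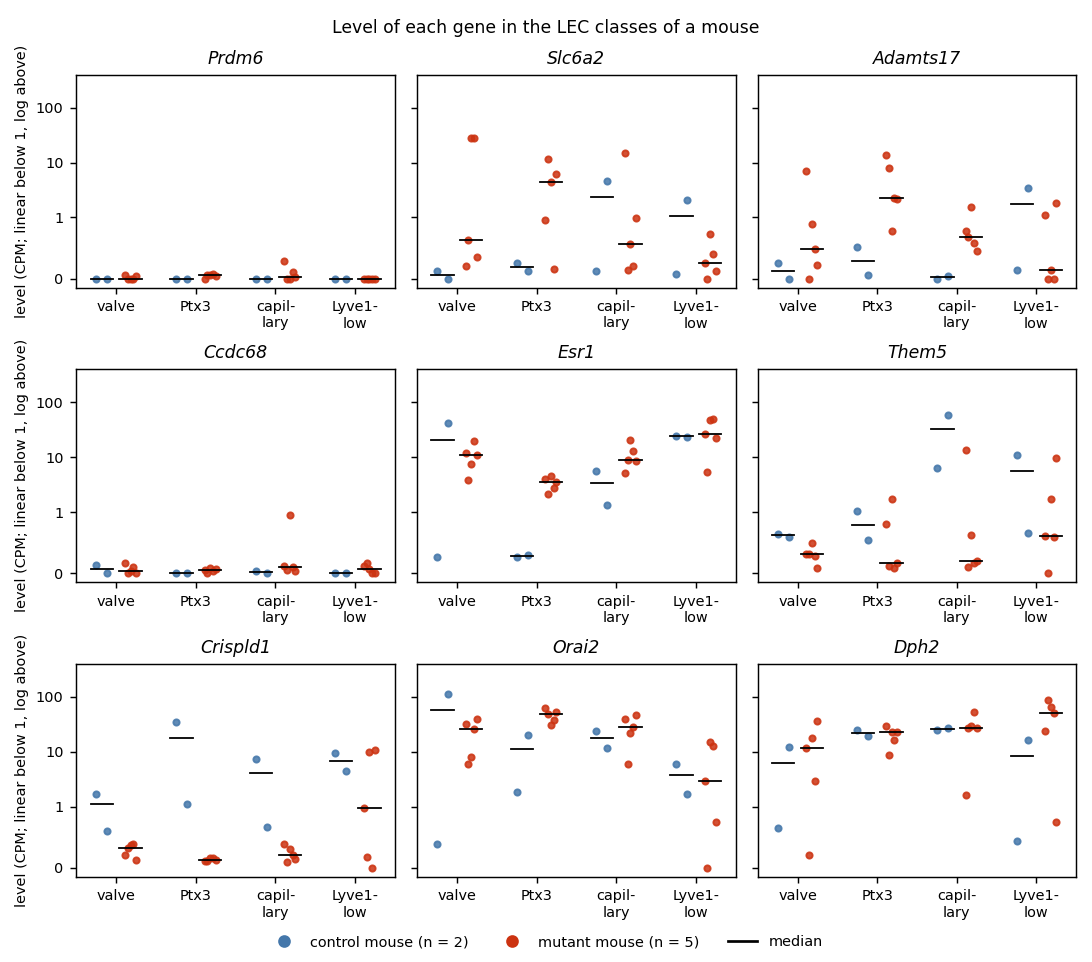
Level of each gene in CPM (linear below 1, log scale above) in the 4 LEC classes of each mouse. Points are mice, 2 controls in blue and 5 mutants in red, and lines are medians. Prdm6 and Ccdc68 stay near 0, Orai2 is at 30.6 to 63.1 CPM in the mutant Ptx3 class, and Crispld1 is at 0.101 to 0.164 CPM there.

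Among the LEC classes of mutant mice, Orai2 was positive most often in Ptx3 cells, in 24.6% of them pooled over the mice. In mutants 1 to 5 that class had 63.1, 49.0, 30.6, 37.8 and 52.6 CPM, and the remaining capillary LECs 40.1, 5.95, 22.4, 28.4 and 46.8 CPM, higher in the Ptx3 class in each mouse. Over the 2 controls, with 11 and 44 such cells, the Ptx3 class ran from 1.81 to 20.3 CPM, below every mutant. Control valve LECs ran from 0.386 to 114 CPM, and the higher value exceeded every mutant Ptx3 value. Mutant and control classes were not compared with a test. The positive share in Ptx3 LECs was 17.2% to 32.7%, above the 7.75% to 12.4% of Apln BECs. The edgeR test against capillary LECs called 1.52% of genes in either direction and none of the members (Orai2 log2 fold change 1.12, SE 0.86, adjusted p = 0.975), with 1348 genes at an unadjusted p under 0.05. DESeq2 called 3.14%, with Esr1 as lower among them (-1.68, adjusted p = 0.00672; edgeR -1.70, SE 0.50, adjusted p = 0.162). For Lyve1-low against capillary LECs edgeR called 0.991% of genes and none of the members, with 2355 genes at an unadjusted p under 0.05. DESeq2 called 7.95%, with Crispld1 (3.79, adjusted p = 0.00807) and Esr1 (1.34, adjusted p = 0.0338) higher and Orai2 lower (-2.25, adjusted p = 0.0425).

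Single BECs could hold several of the genes. The counts expected from the separate share of each gene were not calculated, so joint expression was not tested. Leaving out Esr1, mutant Apln cells carried a mean of 1.67, 1.26, 1.32, 1.39 and 0.894 of the other 8 genes per cell in mutants 1 to 5, against 0.540, 0.143, 0.366, 0.386 and 0.367 in remaining cells. Control Apln cells had 0.500 and 0.154. At least 2 of the 8 were found in 22.5% to 53.9% of mutant Apln cells, against 1.79% to 10.0% of remaining cells, and at least 3 in 4.23% to 23.6%. Mutant 5 had the lowest of these shares in Apln cells. Up to 6 of the 9 genes were found in 1 cell. At least 1 of the 8 was found in 62.0% to 82.0% of mutant Apln cells, so that positive and negative cells were mixed in the class at this depth.

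Of the relatives of the members, 2 of 66 tested (3.03%) were called between mutant and control mice in BECs and 2 of 66 in LECs, near the 2.12% and 2.76% of all genes called in either direction. Of the other calcium entry genes, Orai1, Orai3, Stim1 and Stim2, all 4 were tested and 0 of 4 were called in BECs or in LECs. Orai3 was at 27.0 and 35.7 CPM in control and 49.6 to 86.7 CPM in mutant BECs. Of 7 diphthamide genes 0 were called in either cell type. Of 18 other ADAMTS genes, 13 were tested in BECs, and Adamts5, an aggrecanase, rose (5.54 to 9.75 CPM in controls, 23.4 to 45.6 CPM in mutants, log2 fold change 2.21, SE 0.38, edgeR adjusted p = 0.0281), while 0 of 12 were called in LECs. Of 8 thioesterases, Acot7, which cleaves long-chain acyl-CoA, rose in BECs (1.72, SE 0.34, edgeR adjusted p = 0.0443) and in LECs (0.92, SE 0.15, edgeR adjusted p = 0.0209), and Them4, the closest paralog of Them5, was at 9.15 and 21.6 CPM in control and 12.0 to 21.2 CPM in mutant BECs. None of the 6 steroid receptor genes tested was called in either cell type. Pgr, a target gene of oestrogen receptor, was listed at 0 in both controls and at up to 0.0212 CPM in mutant BECs, and Greb1, another target, did not exceed 0.0869 CPM in BECs of any mouse.

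Of the monoamine genes 0 of 7 tested in BECs and 0 of 9 in LECs were called, and of the PRDM factors 0 of 10 and 0 of 9. Between Apln and remaining mutant BECs, edgeR called 2 of 64 relatives tested (3.12%) and 330 of all 16028 genes. Prdm16 was lower in Apln cells (log2 fold change -2.18, SE 0.44, edgeR adjusted p = 0.0146). Gper1, a membrane oestrogen receptor, was lower there too (-7.05, SE 0.72, edgeR adjusted p = 4.63e-05). In Ackr1/Selp against remaining cells 1 PRDM factor and 1 gene of the steroid receptor list were also called lower. In the CAP superfamily Glipr2 rose in LECs (10.9 and 23.2 CPM in controls, 68.3 to 129 CPM in mutants, 2.40, SE 0.38, edgeR adjusted p = 0.0214). Crispld2, the closest paralog of Crispld1, was at 30.7 and 57.7 CPM in control BECs and at 0.0924 to 24.1 CPM in mutant BECs, and was not called. Of 6 centriole appendage genes 0 were called in either cell type. Over the lists, medians of the log2 fold change in BECs ran from -1.34 in the CAP superfamily to 0.47 in the monoamine list.

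The genes whose pattern over the 20 class sums of mutant BECs was most like the mean pattern of the members were Masp1, Cysltr1, Tmsb10, Tll1 and Mmp2, with Pearson correlations of 0.878, 0.865, 0.852, 0.843 and 0.843. The class sums of a mouse share its libraries, so these are descriptions. Masp1, a protease of the lectin pathway of complement, was at 116 to 171 CPM in Apln cells, 47.0 to 96.5 in Ackr1/Selp cells and 0.182 to 3.52 in remaining cells. Tll1, a tolloid-like protease, was at 143.4 to 249.5 CPM in Apln, 104 to 228 CPM in Ackr1/Selp and 1.73 to 33.5 CPM in remaining cells. Mmp2, a gelatinase, was at 2096 to 2541, 813 to 1558 and 17.8 to 350 CPM in the same order. Cysltr1, a leukotriene receptor, was at 109 to 149, 72.3 to 152 and 0.456 to 15.5 CPM. For Tll1 and Cysltr1 the ranges of Apln and Ackr1/Selp cells overlapped. Among the members themselves, Ccdc68 was nearest to the mean pattern (0.907) and Esr1 the farthest from it (-0.096).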

How the data were processed

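Smart-Seq2 cells from 7 plates of 5 mutant mice and 2 plates of 2 control mice were analysed. The labels call them sorted LECs. Per the methods, the authors aligned reads to GRCm38 with TopHat2 2.1.1, removed duplicates with SAMtools 0.1.18 and counted reads per gene with featureCounts. The deposited files hold these raw read counts per gene and cell. The annotation version is not given in the sources used here. Reads carry no molecular barcodes, so zero limits cover counting error only.

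Wells under 200 genes, under 50000 reads or over 10% mitochondrial reads were dropped. Kept cells of a plate held 98334715 to 150173532 reads, with a median of 295698 per cell. No doublet caller was run. Symbols and positions came from GENCODE vM21 by Ensembl gene ID, and gene lengths from the tables. The 9 genes and all lists were chosen with earlier results of these data known. Reads were summed per mouse, or per mouse and class of at least 5 cells, with both plates of mutants 3 and 5 added. Sums were tested with edgeR 4.0.16 in R 4.3.3 (filterByExpr, TMM, quasi-likelihood, Benjamini-Hochberg over all genes, called under 0.05), with DESeq2 1.42.0 as the alternative. SE is the size of the log2 fold change divided by the root of F, and CPM are of plain sums. With 5 against 2 mice, an exact permutation test cannot go under p = 0.0952. In simulated data, edgeR recovered 49.0% of 4-fold and 55.0% of 16-fold changes for mutant against control LECs over 19758 genes, and 23.0% and 53.0% for Apln against remaining BECs over 16028 genes. The genes named were the 9, relatives that were called or are the closest paralog, and the 5 genes whose log2 CPM (pseudocount 1, mean of at least 3) over 20 class sums followed the members' mean best. A few relatives were named after their values were seen (Orai3, Pgr, Greb1, Prdm16 and Gper1).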

Additional observations from a re-analysis of the deposited data

Results flagged for a closer look

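Them5 in LECs of mutant 1 stood at 4.15 CPM, apart from 0.126 to 1.09 CPM in the other 4 mutants. Dph2 in Apln BECs of mutant 4 stood at 39.2 CPM, apart from 14.8 to 20.5 CPM in the others. Such gaps were looked for in 27 sets of 5 mice, and chance alone gives about 5% of them.

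Them5 was lower in LECs of all 5 mutants than in both controls (median 0.556 CPM against 6.24 and 26.5 CPM), and higher in BECs of all 5. The difference between the cell types was not tested.

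Among the cells with neither name, which entered no comparison, the share positive for Esr1 had a median of 17.5% over the 4 mutants with at least 5 such cells, against 4.76% and 6.90% in the controls.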

How the results depend on the processing

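The genes called by edgeR numbered 546 in mutant against control LECs and 410 in BECs. DESeq2 called 2472 and 2238. With the plate series as a block edgeR called 160 and 37, with mutant 5 against the controls alone 3 and 0, and without cycling cells 113 in LECs. Leaving out each mouse gave 153 to 546 in LECs, lowest without mutant 3 and 175 without control 1, and 159 to 586 in BECs, lowest without mutant 3. Replicate numbers of mutants and controls only name the mice, since same-numbered mice correlated at 0.0227 and 0.0867 in BECs and at -0.0324 and -0.0428 in LECs. With the replicate number as a block edgeR called 4 genes in LECs and 0 in BECs.

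Between classes of mutant mice, DESeq2 called 825 genes for Apln (edgeR 330), 1783 for Gja5 (275), 1267 for Ackr1/Selp (396), 532 for Ptx3 (258) and 1348 for Lyve1-low cells (168). Leaving out each mutant gave 95 to 185, 84 to 153, 143 to 273, 98 to 220 and 23 to 164 calls, lowest without mutant 3 except for Lyve1-low cells, where mutant 5 was left out. With no replicate block, which is the mouse here, edgeR called 133 for Ptx3 and 111 for Lyve1-low cells. Halved class limits gave 118 for Gja5, 252 for Ackr1/Selp and 714 for Lyve1-low cells, and doubled limits 27 for the last. No expression filter gave 177 for Gja5, and leaving out cycling cells 99 for Lyve1-low cells. The causes were not tested.

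Of 809 log2 fold changes of members and positive shares under the alternatives, 707 counted as unchanged. For tested values this means that direction and side of the threshold were kept. For values with no test it means a move within 1 SE, or for shares 1 SD over mice. Another 21 came under the threshold of adjusted p, 6 no longer did (all of Ccdc68 in the Apln contrast) and 37 turned direction. The other 38, all with no test, moved by more than 1 SE or 1 SD. The mean number of members per mutant BEC was 1.28, and it was 2.06 without thinning and 0.855 with at least 2 reads.

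Directions turned only for values that were not called. Esr1 in LECs (0.20) went to -0.32 with the replicate block, -0.043 with thinned cells, -0.15 with the stricter cell rule, -0.31 with the plate series as a block and -0.31 with mutant 5 alone, and spanned -0.023 to 0.36 with 1 mouse left out. With class limits halved, the Apln contrast gave 0.21 for Dph2, the Gja5 contrast 1.03 for Prdm6, -1.19 for Slc6a2, 0.63 for Adamts17 and -0.041 for Esr1, and the Ackr1/Selp contrast -1.10 for Orai2 and 0.47 for Dph2. With limits doubled, Dph2 had 0.093 in Ackr1/Selp cells, Them5 0.64 in Ptx3 cells and Slc6a2 0.35 in Lyve1-low cells. Thinned cells gave 0.52 for Prdm6 and -0.079 for Esr1 in Gja5 cells and 0.25 for Dph2 in Ackr1/Selp cells. With no replicate block, Adamts17 had 0.41 in Gja5 cells, Dph2 0.40 in Ackr1/Selp cells and Them5 -0.16 in Lyve1-low cells. Them5 had 0.50 in Ptx3 cells without cycling cells. With 1 mutant left out, the values spanned -0.85 to 0.011 for Dph2 in Apln cells. In Gja5 cells they spanned -2.77 to 1.19 for Prdm6, -1.30 to 3.18 for Slc6a2 and -1.11 to 0.52 for Adamts17. In Ackr1/Selp cells they spanned -0.061 to 0.57 for Esr1, -0.53 to 1.65 for Orai2 and -0.36 to 0.38 for Dph2. In LEC classes they spanned -2.25 to 0.42 for Them5 and -1.13 to 0.23 for Dph2 in Ptx3 cells, and -0.99 to 3.20 for Them5 in Lyve1-low cells.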
